A study of Mus musculus with 8 samples.

Results

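The 9 genes of the myelin sheath followed here were measured in medium spiny neurons that had been sorted from the mouse striatum. They are Mbp, Mog, Mag, Mobp, Cldn11, Mal, Aspa, Fa2h and Ugt8a. They are 9 of the 34844 gene names on the array. Every probe named for one of them was taken, which gave 13 of the 55681 non-control probes, and 10 of the 13, for 8 of the genes, passed the filter on dim signal and were tested. The study compared R6/2 mice, a transgenic model of Huntington's disease that carries the start of the human huntingtin gene with an expanded CAG repeat, with wild-type mice. One group was WT;Scn4b-Venus and the other R6/2;Scn4b-Venus, so that both carried the fluorescent reporter Scn4b-Venus. All mice were males aged 4 weeks, and the sort took cells with Venus fluorescence that kept out propidium iodide, a dye that enters dead cells. Each group had 4 samples of total RNA, extracted from sorted cells in amounts of about 4 to 20 ng and hybridised in Cy3 to 1 array each. The labels do not say how many mice gave a sample, so the p-values measure the spread between these samples, and the R6/2 line limits the comparison to 1 transgene at 1 age.

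Myelin is the layered membrane that oligodendrocytes wrap around axons, and its genes are among the most active of a mature oligodendrocyte. Mbp encodes myelin basic protein, which holds the inner faces of the layers together; Mobp, Mal and Cldn11 encode further proteins of the compact layers, Cldn11 forming the tight junctions between them. Mag and Mog encode proteins of the innermost and outermost surfaces. Ugt8a and Fa2h encode enzymes of the galactolipids of myelin, and Aspa encodes the enzyme that frees acetate from N-acetylaspartate. Neurons are not the usual source of these transcripts, apart from the golli transcripts of the Mbp gene, which start upstream of the myelin ones and are made in neurons too. In RNA from a bulk sort, fewer cells of a type and less RNA per cell cannot be told apart.

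The 2 probe sequences below are given as examples of both patterns among the members, a Mobp probe that was brightest on WT replicate 2 and an Aspa probe that was not. Both come from the array files, whose positions are on the mm9 build: chr9:120077006-120077065 on the plus strand for Mobp and chr11:73119051-73119110 on the minus strand for Aspa.
Mobp: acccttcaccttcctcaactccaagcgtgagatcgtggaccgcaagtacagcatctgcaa
Aspa: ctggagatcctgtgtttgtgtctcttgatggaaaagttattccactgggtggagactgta
Each is a 60-base probe, as were the other 11. The Cldn11 probe A_51_P409452 lay at chr3:31062922-31062981 (plus strand), the Mag probe A_55_P2062757 at chr7:31684202-31684261 (minus), the Mal probe A_55_P2113160 at chr2:127458976-127459035 (minus), the Mog probe A_66_P123582 at chr17:37148277-37148336 (minus), the Ugt8a probe A_52_P439263 at chr3:125568995-125569054 (minus) and the Fa2h probe A_55_P2086128 at chr8:113869096-113869155 (minus). Mobp had, beside the probe above, A_55_P1958793 at chr9:120078400-120078459 and A_55_P1958798 at chr9:120085150-120085209. An mm9 annotation of exons and UTRs was not used here.

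A level below is the log2 signal of a probe minus the log2 of the array's 75th percentile signal, so that 0 is as bright as the probe at that percentile; levels of different probes are not compared. On the arrays 50.2% to 78.8% of probes were well above background, the lowest share on WT replicate 1, where a probe had to reach a level of about -2.78 to be detected, against -5.11 to -4.25 on the other 7. WT replicate 1 detected 5 of the 13 member probes, and WT replicates 2 and 3 detected all 13. R6/2 replicate 4 was alone on a second slide. Scn4b, after which the reporter is named, was lower in R6/2 on every array: WT replicates 1 to 4 read 6.78, 6.17, 5.87 and 6.25, and the R6/2 arrays in the same order read 5.50, 4.73, 5.47 and 4.76 (difference -1.15, limma adjusted p = 0.552). The 13 pan-neuronal genes listed had a mean level between 4.79 and 5.08 on all 8 arrays. The myelin genes varied more widely from array to array.

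None of the 10 tested member probes differed between R6/2 and WT after adjustment over all 41394 tested probes (limma, adjusted p between 0.685 and 0.926). Over all tested probes 0.00242% passed that threshold. At an unadjusted p under 0.05, 1 of the 10 member probes passed, against 7.02% of all tested probes. In none of the 10 were the 4 R6/2 arrays separated from the 4 WT arrays, which held for 4.57% of all tested probes. The estimated difference was negative for 9 of the 10, against 44.5% of all tested probes. One WT array, replicate 2, was the highest of the 8 for 7 of the 10 probes, against 19.8% of all tested probes, and the difference of each tested member probe is given with and without it.

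**Figure D1:**
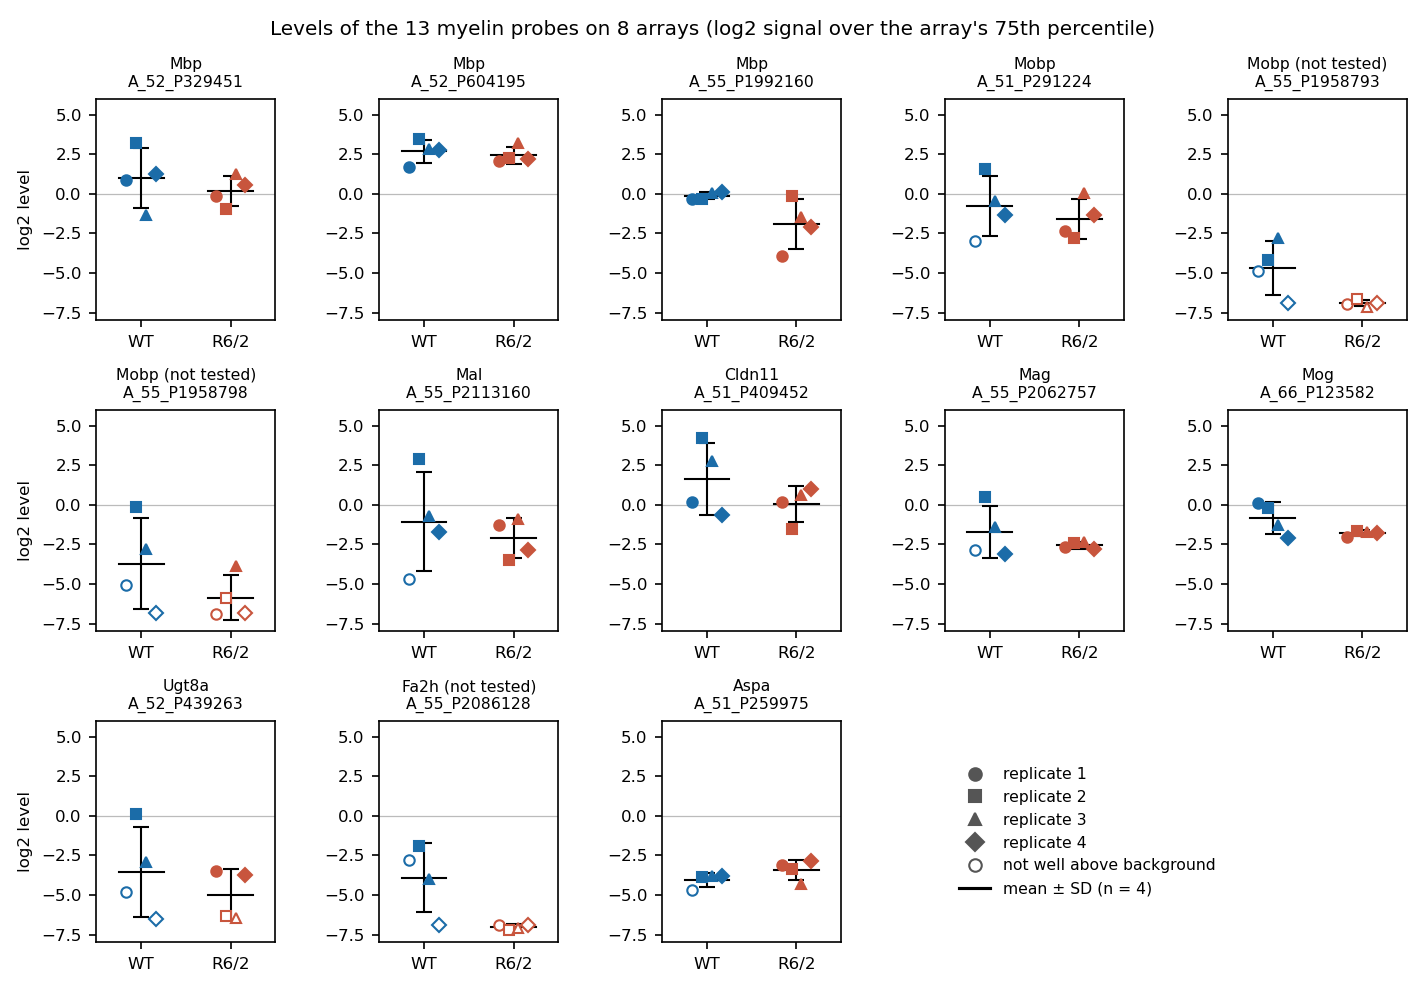
Log2 level (y axis) of each of the 13 probes on each array, by group and replicate; open symbols are spots not well above background and bars are mean ± SD over 4 arrays. WT replicate 2 (blue square) sits on top for the tested Mobp probe, Mal, Cldn11, Mag and Ugt8a, whereas Aspa, Mog, the upstream Mbp probe and the Mobp probe A_55_P1958793 do not show this.

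Of the compact myelin genes, Cldn11 was at 0.20, 4.25, 2.76 and -0.63 on WT replicates 1 to 4 and at 0.17, -1.55, 0.63 and 0.98 on the R6/2 arrays; values are in replicate order throughout. WT replicates 2 and 3 lay above every R6/2 array, and the other 2 WT arrays lay among them. The mean was 1.64 ± 2.26 in WT and 0.06 ± 1.12 in R6/2 (SD, n = 4), a difference of -1.59 (SE 1.07, 95% interval -4.03 to 0.86; limma adjusted p = 0.794). Without WT replicate 2 it was -0.72.

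Mal was at -4.71, 2.93, -0.72 and -1.75 in WT and at -1.26, -3.50, -0.87 and -2.86 in R6/2. The group of WT arrays held both the highest and the lowest value, the lowest being a spot of replicate 1 not well above background. Mal had the largest SD of the tested members in WT, 3.15, larger than that of 99.9% of all tested probes. Its difference of -1.06 (SE 1.44, 95% interval -4.34 to 2.22; limma adjusted p = 0.906) turned to 0.27 without WT replicate 2.

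Mobp, read by the probe printed above, was at -2.96, 1.56, -0.43 and -1.31 in WT and at -2.32, -2.80, 0.04 and -1.33 in R6/2. WT replicate 2 was 2.87-fold above the highest R6/2 array, and the other WT arrays fell within or next to the R6/2 range. The difference was -0.82 (SE 0.97, 95% interval -3.02 to 1.38; limma adjusted p = 0.888), and -0.04 without WT replicate 2. The other 2 Mobp probes were dim. A_55_P1958798 was at -5.04, -0.16, -2.80 and -6.86 in WT and at -6.87, -5.90, -3.85 and -6.83 in R6/2, and only WT replicates 2 and 3 and R6/2 replicate 3 were well above background. A_55_P1958793 was well above background on WT replicates 2 and 3, at -4.21 and -2.79, and on no R6/2 array. Its mean in WT was 1.14-fold above a level set by the dimmest detected signal of each R6/2 array, and 1.02-fold without WT replicate 2. That mean included undetected spots of WT replicates 1 and 4 as read, so neither fold is a lower limit. WT replicates 2 and 3 were among the 3 brightest arrays for each Mobp probe.

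Mbp gave a different picture for each probe. Its 3 probes lay on the plus strand of chromosome 18. A_55_P1992160 at 82691469-82691528 lay farthest upstream, A_52_P604195 lay at 82727929-82727988, and A_52_P329451 matched in pieces from 82742266 to 82744570, a span of 2305 bases, so that it crosses a splice junction near the far end of the gene. The files name transcript variant 8 for A_52_P604195 and variant 7 for the other 2.

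The junction-crossing probe A_52_P329451 was at 0.84, 3.22, -1.33 and 1.27 in WT and at -0.14, -0.98, 1.23 and 0.59 in R6/2, again highest on WT replicate 2. Its difference was -0.83 (SE 0.90; limma adjusted p = 0.881), and -0.087 without WT replicate 2. A_52_P604195, the brightest Mbp probe on average, was at 1.67, 3.44, 2.85 and 2.76 in WT and at 2.06, 2.24, 3.23 and 2.21 in R6/2. It was well above background on all 8 arrays. Its SD was 0.74 in WT and 0.54 in R6/2, larger than that of 74.0% and 62.8% of all tested probes. Its difference was -0.24 (SE 0.42, 95% interval -1.19 to 0.71; limma adjusted p = 0.926), and 0.011 without WT replicate 2.

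The upstream Mbp probe A_55_P1992160 showed the wider spread in R6/2. It was at -0.30, -0.33, 0.05 and 0.11 in WT, a range of 0.44, and at -3.93, -0.17, -1.47 and -2.08 in R6/2. The 4 WT arrays were close together, and 3 of the 4 R6/2 arrays lay below all of them, R6/2 replicate 2 lying among them. The difference of -1.80 (SE 0.68, 95% interval -3.35 to -0.24) had an unadjusted limma p of 0.029 and an adjusted p of 0.685, so that it did not pass over all probes; without WT replicate 2 it was -1.86 (limma adjusted p = 0.670). Its SD in WT, 0.23, was larger than that of only 16.4% of all tested probes, whereas its SD in R6/2, 1.56, was larger than that of 96.7%. Over the 8 arrays its deviations from the group means had a Pearson r of -0.27 with the mean of the other 7 tested members, against 0.66 for A_52_P604195 and 0.46 for A_52_P329451.

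Of the surface proteins, Mag was at -2.83, 0.52, -1.41 and -3.08 in WT and at -2.68, -2.41, -2.37 and -2.81 in R6/2. WT replicates 2 and 3 stood above all R6/2 arrays, while the 4 R6/2 arrays spanned 0.44. The SD was 1.65 in WT and 0.21 in R6/2, and the difference was -0.87 (SE 0.72, 95% interval -2.51 to 0.78; limma adjusted p = 0.834), or -0.12 without WT replicate 2. Mog was at 0.15, -0.18, -1.26 and -2.08 in WT and at -2.03, -1.64, -1.69 and -1.76 in R6/2. Here the highest array was WT replicate 1, where the spot was well above background, and WT replicate 4 was the lowest of all 8. The difference was -0.94 (SE 0.46; limma adjusted p = 0.740), and -0.72 without WT replicate 2.

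Of the lipid enzymes, Ugt8a, which makes galactosylceramide, was at -4.82, 0.12, -2.92 and -6.55 in WT and at -3.47, -6.32, -6.44 and -3.72 in R6/2. It was well above background on 2 arrays of each group, WT replicates 2 and 3 and R6/2 replicates 1 and 4. The difference was -1.45 (SE 1.39, 95% interval -4.62 to 1.72; limma adjusted p = 0.860), and -0.23 without WT replicate 2. Fa2h, the fatty acid 2-hydroxylase, was at -2.82, -1.88, -4.01 and -6.90 in WT and at -6.87, -7.22, -7.09 and -6.90 in R6/2. It was well above background on WT replicates 2 and 3 and on no R6/2 array, so it was not tested. Its WT mean was 1.98-fold above a level set by the dimmest detected signal of each R6/2 array, or 1.24-fold without WT replicate 2. That mean included undetected spots of WT replicates 1 and 4 as read, so neither fold is a lower limit. Because the filter removed Fa2h and 2 Mobp probes, counts over the tested probes do not describe all 13.

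Aspa was the exception in direction. It was at -4.71, -3.87, -3.83 and -3.81 in WT and at -3.08, -3.37, -4.30 and -2.86 in R6/2. On 3 of the 4 R6/2 arrays it lay above all WT arrays, and WT replicate 2 was an ordinary array for this gene. The difference was 0.65 (SE 0.36, 95% interval -0.17 to 1.48; limma adjusted p = 0.760), and 0.71 without WT replicate 2. With normexp background correction it was 0.16.

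**Figure D2:**
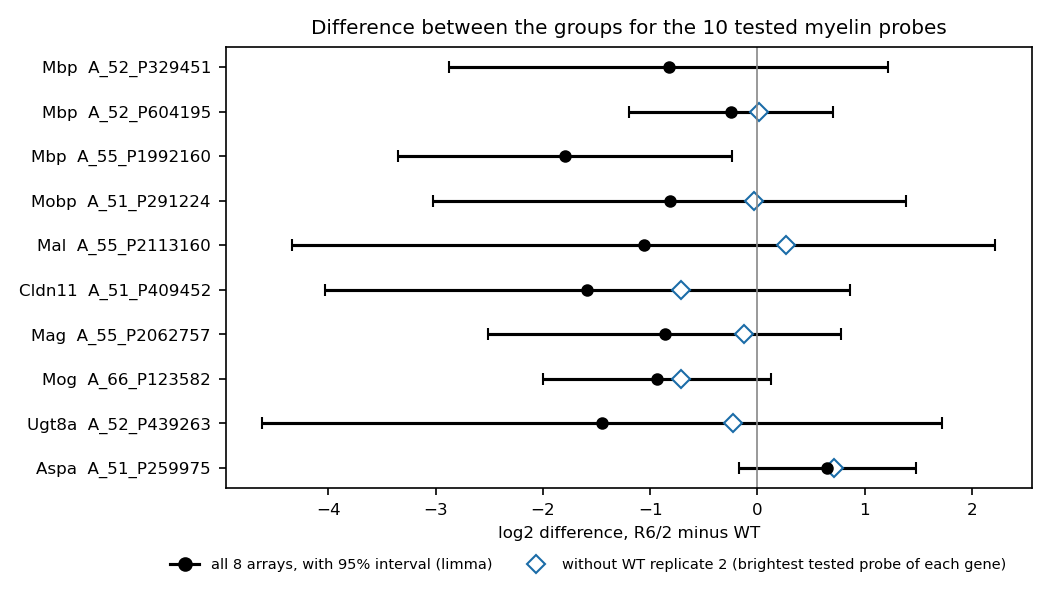
Log2 difference R6/2 minus WT (x axis) for the 10 tested probes with its 95% interval (black), and the estimate without WT replicate 2 for the brightest tested probe of each gene (blue diamonds). Only the interval of the upstream Mbp probe leaves out 0, before adjustment; without WT replicate 2 the estimates for Mobp, Mag and Mbp lie between -0.12 and 0.011.

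The mean level of the 8 tested genes summarises the pattern. On the WT arrays it was -2.25, 1.10, -0.62 and -2.06, and on the R6/2 arrays -1.58, -2.42, -1.47 and -1.52. The value of WT replicate 1 rests partly on undetected signal, since Aspa, Mag, Mal, Mobp and Ugt8a were not well above background there. Ugt8a was also undetected on WT replicate 4 and R6/2 replicates 2 and 3. WT replicate 2 was highest, WT replicate 3 next, and the other 2 WT arrays were below 3 of the 4 R6/2 arrays. The mean was -0.96 ± 1.55 in WT and -1.75 ± 0.45 in R6/2 (SD, n = 4), a difference of -0.79. Without WT replicate 2 the difference was -0.10. No p is given for this mean, because its members were chosen with results of these data known.

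The WT group was the more variable. Among the 10 tested probes 8 had a larger SD in WT than in R6/2, against 55.4% of all tested probes, the exceptions being Aspa and the upstream Mbp probe. The SD of the mean level in WT was 1.55 with all 4 arrays and 0.89 without replicate 2. Both values include WT replicate 1, where several members were not well above background. Over all tested probes the median SD was 0.46 in WT and 0.43 in R6/2. The ratio of the WT to the R6/2 SD was 7.83 for Mag and 5.87 for Mog, whose 4 R6/2 arrays were closest together among the tested genes. It was 2.50 for Mal and 2.01 for Cldn11. The SDs of the 2 groups were not compared by a test.

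**Figure D3:**
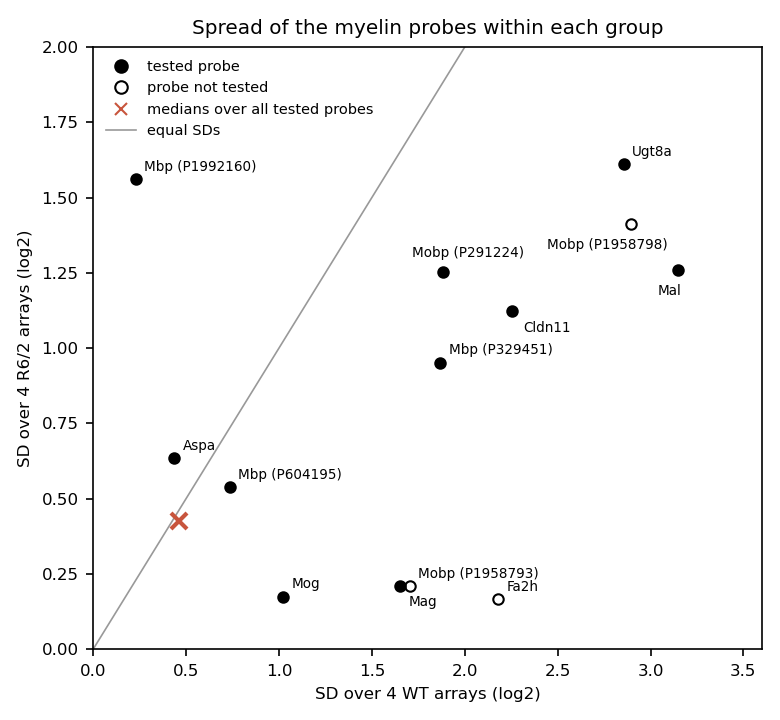
SD over the 4 WT arrays (x axis) against SD over the 4 R6/2 arrays (y axis), both in log2 units, for the 13 probes; the cross marks the medians over all tested probes, 0.46 and 0.43. The points right of the line vary more in WT, and Aspa and the upstream Mbp probe lie left of it.

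The members did not all vary together. Over the 8 arrays, Pearson's r between the deviations of 2 genes from their group means had a median of 0.48 over the 28 pairs of the 8 tested genes, with a range of -0.45 to 0.93. The arrays share the dye, the design and the scaling, and r is given as a description. The highest value was for Mbp, read by A_52_P604195, and Mobp, 0.93. Mal had 0.90 with Mobp and 0.84 with that Mbp probe. Cldn11 had 0.87 with the lipid enzyme Ugt8a and 0.83 with Mag. Mog and Aspa had a median r of 0.01 and 0.14 with the other members, and -0.45 with each other.

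Without WT replicate 2 the median over the 28 pairs was 0.16. The pairs Mbp with Mobp (0.91), Mal with Mobp (0.79) and Mal with Mbp (0.79) were still high, while Mobp with Ugt8a went from 0.52 to 0.02 and Mag with Mal from 0.83 to 0.48. Mbp is represented here by its brightest probe, A_52_P604195, and the pairs were calculated for that Mbp probe only. The other downstream Mbp probe, A_52_P329451, was lowest on WT replicate 3, at -1.33, where A_52_P604195 was at 2.85. Over 8 arrays its r with the mean of the other 7 members was 0.46, against 0.66 for A_52_P604195. High r with Mobp and Mal is thus not shown for Mbp as a gene. WT replicate 1 was the lowest array for A_52_P604195, Mobp and Mal, and its Mobp and Mal spots were not well above background.

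**Figure D4:**
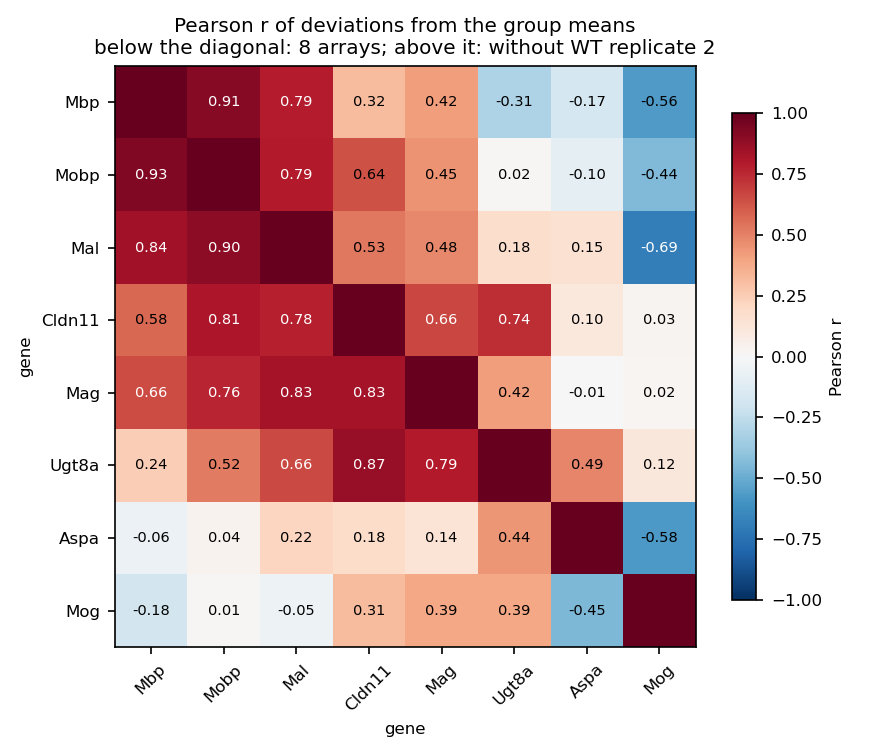
Pearson's r (colour and number) between the deviations of 2 genes from their group means, below the diagonal over 8 arrays and above it without WT replicate 2. The block of Mbp (probe A_52_P604195 only), Mobp and Mal lies between 0.79 and 0.93 in both, whereas Mog and Aspa stand outside.

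Among the 26862 other genes with a value on every array, the gene whose deviations followed the mean of the members most closely was 2610042L04Rik, a gene without a descriptive name (r = 0.998 over 8 arrays), followed by Esyt1, a tether between the endoplasmic reticulum and the cell membrane (0.995), Rprd1b (0.984), Arid1b, a chromatin remodelling subunit (0.980), S1pr5, a sphingosine 1-phosphate receptor known in oligodendrocytes (0.978), and Ptprg (0.978). Among the next ones were TC1756247, Ptov1, Trf (transferrin, an oligodendrocyte product), TC1601409, Nkain3, Mapk6, Mettl6 and Pole, down to 0.964 for the fifteenth. Trf was also on the list of mature oligodendrocyte markers. An r of at least 0.8 was reached by 3.63% of the 26862 genes. Without WT replicate 2 the r of the genes named was between 0.87 and 0.99, and 573 of the 26862 genes reached 0.8, against 976 with it.

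Trf was at -3.46, 0.73, -1.66 and -2.48 in WT and at -1.46, -2.75, -1.10 and -1.54 in R6/2, a difference of 0.00 (SE 0.83), and 0.82 without WT replicate 2. WT replicate 2 stood 2.32 above the median of the 8 arrays, and the other 3 WT arrays lay among the R6/2 arrays or below them.

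Other genes of myelin and of the oligodendrocyte lineage were read from lists, with the members left out. Of the 3 genes of compact myelin counted here, Pmp22, Cd9 and Tspan2, all had a negative difference and all were highest on WT replicate 2; the median difference was -1.07 (-0.42 without WT replicate 2), against 0.03 over all tested genes (0.063 without it), and 0 of 3 passed the adjusted threshold (limma, lowest adjusted p = 0.691; 1 at an unadjusted p under 0.05, Cd9, a tetraspanin). Cd9 was at 0.23, 1.54, 0.23 and -1.98 in WT and at -2.25, -1.59, -1.08 and -1.82 in R6/2, a difference of -1.69 (SE 0.67), and -1.18 without WT replicate 2. That of Tspan2, also a tetraspanin, went from -1.07 to -0.32. On WT replicate 2, Cd9 and Tspan2 lay 2.87 and 2.99 above their 8-array medians, whereas Pmp22 lay 0.42 above its own. For Cd9, 3 of the WT arrays lay above every R6/2 array, and WT replicate 4 lay among them. Of the 8 genes of noncompact myelin and the myelin surface, 5 lay lower in R6/2 and 3 higher, the median difference being -0.21 (-0.078 without WT replicate 2), and none was called (lowest adjusted p = 0.709, none at an unadjusted p under 0.05). Cnp, the phosphodiesterase of noncompact myelin, had a difference of -0.52 (SE 0.39), and -0.25 without WT replicate 2. Of the 10 genes of myelin lipid synthesis, 4 were negative, with a median of 0.021 (0.054 without WT replicate 2), and none was called (lowest adjusted p = 0.565). One of them, Cers2, a ceramide synthase, had an unadjusted limma p under 0.05 and was higher in R6/2 (1.86, SE 0.49).

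Of the 30 mature oligodendrocyte markers counted here, 19 lay lower and 11 higher in R6/2, the median difference being -0.15, and 0.00016 without WT replicate 2. None was called (limma, lowest adjusted p = 0.410), and 2 had an unadjusted p under 0.05, Gsn (gelsolin, difference -1.92, SE 0.37) and Efnb3 (-0.94, SE 0.26). WT replicate 2 was the highest array for 11 of the 30 and lay at least 2 above the 8-array median for 6 of them, against 21.6% and 1.09% of all other genes. Several genes of this list, such as Gsn and Stmn4, are expressed in neurons too. For the 10 markers of newly formed oligodendrocytes, the 12 of precursors and the 9 transcription factors the median differences were -0.05, 0.02 and -0.08 (0.083, 0.057 and -0.24 without WT replicate 2), and no gene lay 2 above the median on WT replicate 2. Sox10, the master regulator of the lineage, was at -2.49, -1.69, -1.16 and -2.15 in WT and at -2.56, -2.23, -2.32 and -2.90 in R6/2, and Olig2 stayed between -1.06 and -0.43 on all 8 arrays.

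For several other cell types the mean level of the markers was also higher on WT replicate 2, by less than for the compact myelin genes. The mean level of the list on that array, set against its median over the 8 arrays, was 2.19 higher for compact myelin, 0.93 for mature oligodendrocytes, 1.24 for 6 erythrocyte genes, 0.77 for 11 endothelial and mural genes, 0.47 for 13 microglial genes and 0.46 for 13 astrocyte genes. The other myelin and lineage lists rose less. The value was 0.49 for noncompact myelin and the myelin surface, near that of microglia and astrocytes, and 0.008 for myelin lipid synthesis. It was 0.38 for newly formed oligodendrocytes, 0.14 for precursors and 0.14 for the transcription factors. For the 8 members it was 2.64. For the 13 pan-neuronal genes it was -0.08. The 20 medium spiny neuron markers all had a negative difference, against 46.0% of all other genes. None of them was called, and 11 had an unadjusted limma p under 0.05, against 1774 of the 26904 other genes. For these markers WT replicate 2 had the lowest mean level of the WT arrays, 4.96 against 5.16, 5.07 and 5.24 on replicates 1, 3 and 4. It was still the highest of the 8 arrays for 7 of the 20 markers, against 21.6% of all other genes. The R6/2 arrays were between 4.32 and 4.68. No gene of these lists was called (limma, lowest adjusted p = 0.410, for Gsn). Summed over a list, the linear signal relative to the 75th percentile of the array ran from 0.78 to 6.52 in WT and from 0.59 to 1.01 in R6/2 for compact myelin, from 1.58 to 9.30 and from 2.54 to 3.74 for erythrocyte genes, from 23.9 to 29.5 and from 20.2 to 23.0 for astrocyte genes, and from 193 to 216 and from 162 to 192 for microglial genes. The astrocyte sum was lowest of the WT arrays on replicate 2. That array was the highest for 3 of 13 astrocyte and 3 of 13 microglial genes, near the 21.6% of all other genes. The count was 4 of 11 for endothelial and mural genes, 3 of 6 for erythrocyte genes and 1 of 13 for pan-neuronal genes. Genes of the astrocyte and microglial lists lay on either side of their 8-array medians there. Of the astrocyte genes, S100b lay 3.28 above its median, and Slc1a2, the glutamate transporter of astrocytes, was at -0.73 relative to its own. Of the microglial genes, Cx3cr1 lay 1.25 above its median, and Csf1r, a receptor of microglia, was at -0.75 relative to its own. The globin Hba-a2 was at 2.31 on WT replicate 2 and between -3.90 and 0.31 elsewhere, and it shares sequence with Hba-a1. Some defining markers were not among the tested genes, such as Pdgfra and Olig1 of precursors, P2ry12 of microglia, Gja1 of astrocytes and Pdgfrb of mural cells. The part that other cell types had in the myelin levels was not tested.

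**Figure D5:**
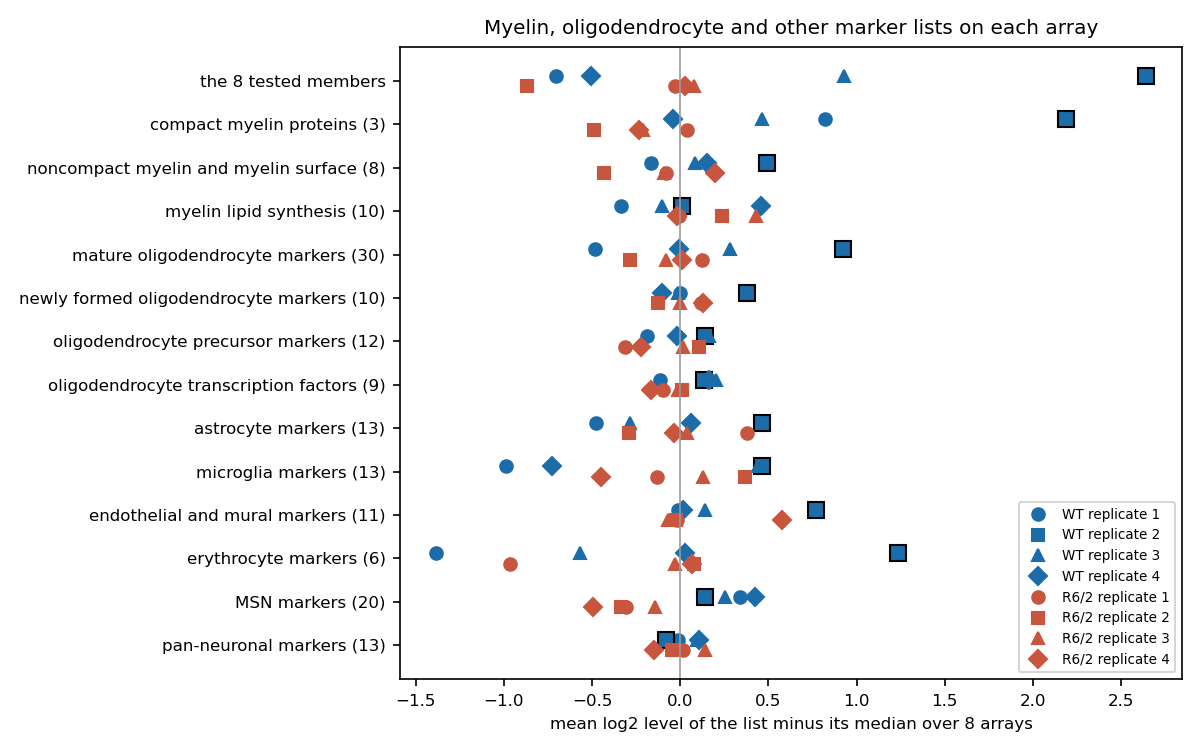
Mean log2 level of each list on each array minus its median over the 8 arrays (x axis), with the number of tested genes in brackets; WT in blue, R6/2 in red, WT replicate 2 outlined in black. The members and the other compact myelin genes lie 2.64 and 2.19 above their median on WT replicate 2. The noncompact myelin and myelin lipid synthesis lists lie 0.49 and 0.008 above theirs, and the pan-neuronal genes lie near 0 on all arrays.

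In the authors' deposited table, which holds their own unpaired test on the same 8 arrays, no member probe passed after correction. The smallest corrected p of the member probes was 0.838, shared by 7 of them, and the direction given there was down for 12 of the 13 probes and up for Aspa. The largest absolute fold changes in the authors' deposited table were for dim probes, 8.68 for Fa2h and 4.66 for the Mobp probe A_55_P1958793, neither of which was well above background on any R6/2 array.

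Because several members varied together, the 250 bases before the start of each gene were read from the RefSeq table for GRCm38.p6, which held 9 windows for 7 of the 9 genes. The search was for 4 motifs on both strands. ACAAAG, the core that SOX factors bind, was found in 16.5% of all 32851 windows and in Mobp and 2 of 3 windows of Mag. These 2 Mag windows overlap in position, so they may hold the same match. ACAATG was in 3512 windows and in no member. TTTGTT, which can overlap the reverse complement of ACAAAG by 5 bases, was in 18.0% and in Mobp, Cldn11 and Mog, and CAGCTG was in 4271 windows and in Aspa. The Mobp window is printed because it held 6 matches to ACAAAG, all of them on the minus strand as CTTTGT, in capitals, and no other window held as many. It runs over chr9:120149492-120149741 of GRCm38.p6 on the plus strand.
Mobp promoter: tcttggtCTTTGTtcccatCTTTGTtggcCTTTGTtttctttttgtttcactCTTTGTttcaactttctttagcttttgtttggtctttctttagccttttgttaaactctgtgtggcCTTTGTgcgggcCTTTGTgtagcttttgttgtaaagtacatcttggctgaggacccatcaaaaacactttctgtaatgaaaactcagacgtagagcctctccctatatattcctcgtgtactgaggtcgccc
A match describes these letters and is no sign of binding, and the motifs and the window shown were chosen after looking at the windows.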

How the data were processed

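The 8 arrays were Agilent 1-colour arrays read with Feature Extraction 10.7.3.1, per the file headers, which name the build mm9. The authors' deposited scanner files give intensity per spot, and background subtraction had been done by that software. The values used were log2 of the processed signal minus the array's 75th percentile over non-control probes; spots marked as outliers were left out and spots of a probe averaged. The authors' deposited table holds the raw intensity, log2 values that differ from log2 of the raw intensity by 1 constant per array, an unpaired test's p-value, and an absolute fold; it was used for comparison only, and its 8 flag columns were not used. One damaged line of R6/2 replicate 3 was left out.

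A probe was tested if 4 or more of the 8 arrays detected it well above background; 41394 probes for 26912 genes were, with limma 3.58.1 in R 4.3.3 (lmFit, eBayes, two-sided, Benjamini-Hochberg over all tested probes, threshold 0.05); intervals are at 95%. The brightest tested probe on average stands for a gene. The fit was checked on simulated data. Symbols were taken from the files and updated through RefSeq names, of which 27730 probes matched directly and 3295 through an older symbol. The members and the gene lists were chosen with earlier results of these data known. Text names all members, Scn4b, up to 10 genes of a list by smallest p, and the 15 genes most like the members' mean; genes not reported here were left out of the names and of the list counts. Other scalings, filters, a slide block, a replicate block and leaving out each array were alternatives. The number of arrays, 4 per group, limits the precision.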

Additional observations from a re-analysis of the deposited data

Results flagged for a closer look

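Of 28 groups of 4 arrays (13 probes and the members' mean, in each genotype), 3 held 1 array that was far from the other 3, measured as the gap to its nearest neighbour over the group's range, where chance gives about 1 in 20 groups. Aspa in WT had a ratio of 0.928 with WT replicate 1 lowest, at -4.71, on a spot not well above background. The Mbp probe A_52_P604195 in R6/2 had a ratio of 0.846 with R6/2 replicate 3 highest, at 3.23. The mean level of the 8 tested members in R6/2 had a ratio of 0.889 with R6/2 replicate 2 lowest, at -2.42. WT replicate 2 did not pass this measure for any member or for their mean.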

How the results depend on the processing

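No member probe was called in any of the 22 alternatives run. The number of probes called over all tested probes was 1 in the reported setting, 8 with normexp background correction, 2 with quantile normalization, 7 with probes well above background on all 8 arrays, 8 with array weights, 5 where a gene's probes were averaged, and 0 with the slide as a block, with the replicate block and with the plain unpaired test; leaving out 1 array at a time gave 0 to 3. The mean difference over the members stayed negative, from -1.22 without WT replicate 1 to -0.10 without WT replicate 2, the slide block giving -0.86. Leaving out 1 array gave Mal differences from -2.27 to 0.27 and Mbp differences from -0.58 to 0.011, each positive without WT replicate 2. It gave an SD of the members' mean of 0.89 to 1.88 in WT and of 0.052 (without R6/2 replicate 2) to 0.53 in R6/2, and a median r between members of 0.16 to 0.75. Without WT replicates 1 and 2, an alternative added after seeing the data, the SD in WT was 1.01. Among the lists, the median for newly formed oligodendrocyte markers was -0.30 without a filter, that for precursors -0.21 with probes well above background on all 8 arrays, that for transcription factors between -0.24 and -0.032 with 1 array left out, and that for pan-neuronal genes -0.22 without WT replicates 1 and 2. Replicate numbers are shared by the groups, but same-numbered arrays had correlations of deviations between -0.04 and 0.02, so they were not taken as pairs; with the replicate block the mean difference was -0.79 and 0 probes were called. Dim signal limits Ugt8a, Fa2h and 2 Mobp probes.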
